A study of Mus musculus with 2 samples.

Results

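DNase-seq maps where chromatin is open to cutting by DNase I, and here it was read at 10 genes that mark tissue macrophages in whole newborn mouse heart. The genes were Ptprc, Spi1, Csf1r, Cd68, Adgre1, C1qa, Lyz2, Mrc1, Cx3cr1 and Tyrobp, chosen by name as a macrophage set. They are 10 of the 21938 protein-coding genes, and of 55413 annotated genes, that GENCODE release vM21 places on chromosomes 1 to 19, X and Y of the mm10 build, and all 10 were found there. The study holds 2 libraries of heart tissue from B6NCrl mice at postnatal day 0, which form 1 group with no treatment, no genetic change and no sex given in the labels. Both libraries carry the same donor label but separate biosample labels, so nothing shows that they came from different animals, and the spread between them may be technical. For each library the deposited files list peaks, which are 150 bp windows each with 1 value, and hotspots, which are wider enriched regions each with a −log10 q-value. A peak was counted at a promoter when its centre lay within 500 bp of any annotated transcription start site (TSS) of the gene, in the body when it lay elsewhere in the gene, and nearby when it lay within 50 kb of the gene.

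Macrophages settle in the heart before birth and remain there as resident cells that clear dying cells and debris and interact with vessels and muscle. Their identity rests on the transcription factor PU.1, encoded by Spi1, and their survival on the receptor CSF1R, which binds the growth factors CSF1 and IL-34. In most tissues macrophages are a minority of cells, and genes restricted to blood cells often have promoters poor in CpG. The heart was not sorted by cell type, so at each locus fewer macrophages and less open chromatin per macrophage cannot be told apart.

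The sequences that carry the description are the promoters of Cd68 and Mrc1, the only members with a promoter peak, the promoter of Lyz2 as a member without one, and the peaks in the bodies of Spi1, Ptprc and Mrc1 listed in both libraries. Promoters are from RefSeq on GRCm38.p6, run from 250 bases before to 50 bases after the start, and are written along the gene's strand. Of the 10 members, 5 matched an entry of that promoter table. Peaks are the 150 bp windows of replicate 1 read from the same assembly, which has the chromosome lengths of mm10. Capitals mark matches, on either strand, to 6 short motifs. For PU.1 the letters searched were GAGGAAG, a core of ETS-family sites. For AP-1, the dimer of Fos and Jun proteins, they were TGANTCA. For RUNX factors they were TGTGGT, and for C/EBP factors, which act with PU.1 in myeloid cells, TTGCNNAA. GATA factors were searched with AGATAA, and the muscle factor MEF2 by its usual palindrome with a free centre. No printed match overlaps another. The Cd68 promoter is chr11:69666121-69666420 on the minus strand, with AP-1 at bases 102 to 108 and 227 to 233 and C/EBP at bases 208 to 215. The Mrc1 promoter is chr2:14229164-14229463 on the plus strand, with PU.1 read on the opposite strand at bases 83 to 89 and 215 to 221. The Lyz2 promoter is chr10:117282223-117282522 on the minus strand, with RUNX read on the opposite strand at bases 185 to 190. The Spi1 upstream peak is chr2:91083016-91083165, with C/EBP read on the opposite strand at bases 21 to 28 and RUNX at bases 66 to 71. The Spi1 intron 2 peak is chr2:91101496-91101645, with no match. The Ptprc intron 17 peak is chr1:138085936-138086085 and its repeat-like intron 2 peak is chr1:138133916-138134065, both on the minus strand and with no match. The Mrc1 intron 15 peak is chr2:14295496-14295645, with RUNX read on the opposite strand at bases 46 to 51.
Cd68 promoter: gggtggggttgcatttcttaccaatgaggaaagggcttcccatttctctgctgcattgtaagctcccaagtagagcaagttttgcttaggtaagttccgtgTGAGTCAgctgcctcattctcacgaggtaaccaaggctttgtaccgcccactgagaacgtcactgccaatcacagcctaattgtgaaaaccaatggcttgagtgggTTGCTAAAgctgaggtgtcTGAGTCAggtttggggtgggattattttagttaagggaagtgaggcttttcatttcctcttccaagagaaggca
Mrc1 promoter: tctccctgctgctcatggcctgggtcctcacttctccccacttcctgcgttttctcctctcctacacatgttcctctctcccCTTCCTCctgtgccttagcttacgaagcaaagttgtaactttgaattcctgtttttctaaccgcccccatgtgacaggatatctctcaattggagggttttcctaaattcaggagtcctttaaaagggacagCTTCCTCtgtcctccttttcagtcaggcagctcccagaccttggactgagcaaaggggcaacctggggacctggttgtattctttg
Lyz2 promoter: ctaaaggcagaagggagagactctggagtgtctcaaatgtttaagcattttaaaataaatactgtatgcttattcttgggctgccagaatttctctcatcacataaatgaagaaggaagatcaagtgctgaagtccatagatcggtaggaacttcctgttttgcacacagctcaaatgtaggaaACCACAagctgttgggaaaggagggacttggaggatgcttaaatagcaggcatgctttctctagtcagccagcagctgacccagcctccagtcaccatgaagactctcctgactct
Spi1 upstream peak: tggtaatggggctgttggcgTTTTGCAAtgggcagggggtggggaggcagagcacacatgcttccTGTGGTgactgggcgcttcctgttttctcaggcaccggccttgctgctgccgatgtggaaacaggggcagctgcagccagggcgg
Spi1 intron 2 peak: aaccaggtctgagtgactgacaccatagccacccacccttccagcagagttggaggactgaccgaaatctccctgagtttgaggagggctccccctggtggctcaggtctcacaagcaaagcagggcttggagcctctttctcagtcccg
Ptprc intron 17 peak: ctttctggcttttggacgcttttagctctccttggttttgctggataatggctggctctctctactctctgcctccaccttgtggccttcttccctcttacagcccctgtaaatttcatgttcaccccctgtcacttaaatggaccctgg
Ptprc intron 2 peak: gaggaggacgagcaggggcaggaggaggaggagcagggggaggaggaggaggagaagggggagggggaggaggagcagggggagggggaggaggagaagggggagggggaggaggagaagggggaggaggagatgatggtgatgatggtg
Mrc1 intron 15 peak: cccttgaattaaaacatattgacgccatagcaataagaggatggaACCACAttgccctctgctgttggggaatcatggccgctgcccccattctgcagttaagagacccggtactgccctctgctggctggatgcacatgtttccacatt

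Promoter peaks were nearly absent from the 10 genes. Cd68 alone had a peak at its promoter in both libraries, that is 1 of 10, against 63.7% of all protein-coding genes. Mrc1 had one in replicate 1 only, and the other 8 had none in either library. The hotspot lists gave the same members: Cd68 in both libraries and Mrc1 in replicate 1, so 1 of 10 in both against 64.5% of all genes. These promoters were also poor in CpG, with a median observed over expected ratio of 0.186 against 0.552 over all genes, and 9 of the 10 fell in the lowest 3 of 10 equal groups of genes by that ratio, called deciles here. In those deciles a promoter peak in both libraries was less common for any gene, at 8.12% in the first, 18% in the second and 30.4% in the third. Averaged over the deciles that the 10 members fall in, the share was 26%, so the count of 1 lies much closer to genes of similar CpG content than to all genes. No test was made of the count.

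The only promoter open in both libraries was that of Cd68 (ENSMUSG00000018774.13, chr11:69664213-69666153, minus strand), which encodes a glycoprotein of lysosomes and endosomes. Its peak was at chr11:69666236-69666385 with a value of 39 in replicate 1 and at chr11:69666176-69666325 with a value of 29 in replicate 2, a mean of 34 ± 7.07 (SD, n = 2). These values stood at percentile 55.3 and 38.6 of all peaks of their library, near the middle. The value is a whole number of at most 150 that the authors attached to each peak, and no scaling for depth is stated for it. Within the printed promoter the peaks covered bases 36 to 185 and 96 to 245, so the first AP-1 match lay inside both and the second AP-1 match and the C/EBP match only inside the peak of replicate 2. The hotspots there were weak, with −log10 q of 1.43 and 2.72 on a scale that ends at 100.

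Mrc1 (ENSMUSG00000026712.3, chr2:14229392-14332057, plus strand), which encodes the mannose receptor CD206, differed between the libraries at its start. Replicate 1 had a peak with a value of 32 over bases 13 to 162 of the printed promoter, with the first of the 2 PU.1 matches inside it and a hotspot of −log10 q 2.12. Replicate 2 had no peak in that window but had one 721 bp upstream with a value of 15 and one 919 bp downstream with a value of 20. With a window of 1000 bp the gene would thus count as open in both.

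**Figure D1:**
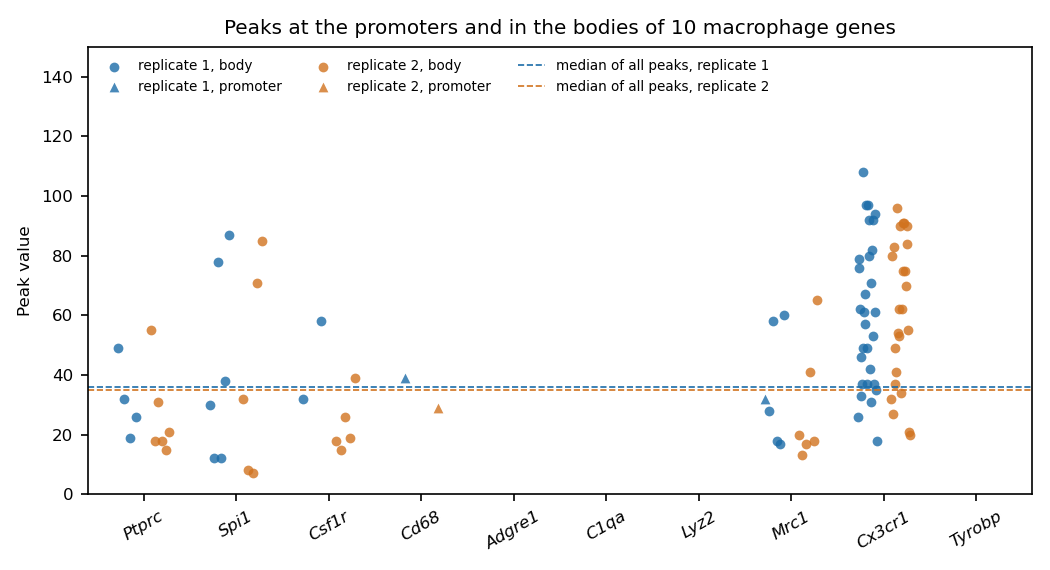
Peak value (vertical axis, the authors' value for each 150 bp peak, no unit) of every peak at the promoter (triangles) or in the body (circles) of the 10 genes, blue for replicate 1 and orange for replicate 2; dashed lines mark the median of all peaks, 36 and 35. Adgre1, C1qa, Lyz2 and Tyrobp have no point, Cd68 has 1 per library, and Cx3cr1 has 29 and 24, of which 27 and 22 lie outside its transcript of support level 1.

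The 5′ ends of most members, taken as the outermost annotated start, were far from any open site. Other start sites can lie closer. For Csf1r in replicate 2 a peak lay 1092 bp from another start site, against 6373 bp from the 5′ end. The nearest peak centre lay a median of 3739.5 bp (replicate 1) and 5502.5 bp (replicate 2) from the 5′ end of the 10 genes, against 149 and 155 bp over all protein-coding genes. Adgre1 was farthest, at 22820 and 22840 bp, followed by Ptprc at 16663 and 16623 bp. Tyrobp, at 7851 and 7871 bp, was next in replicate 1 only. Spi1 was nearest among the genes with no promoter peak, at 701 and 661 bp from the start of an upstream transcript of support level 3. From the start of its main transcript, of support level 1, the nearest peak lay 5475 bp away in both libraries. The libraries gave nearly the same distance for most genes, but for Lyz2 they gave 2910 and 10090 bp, since the closest site was listed in replicate 1 only.

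**Figure D2:**
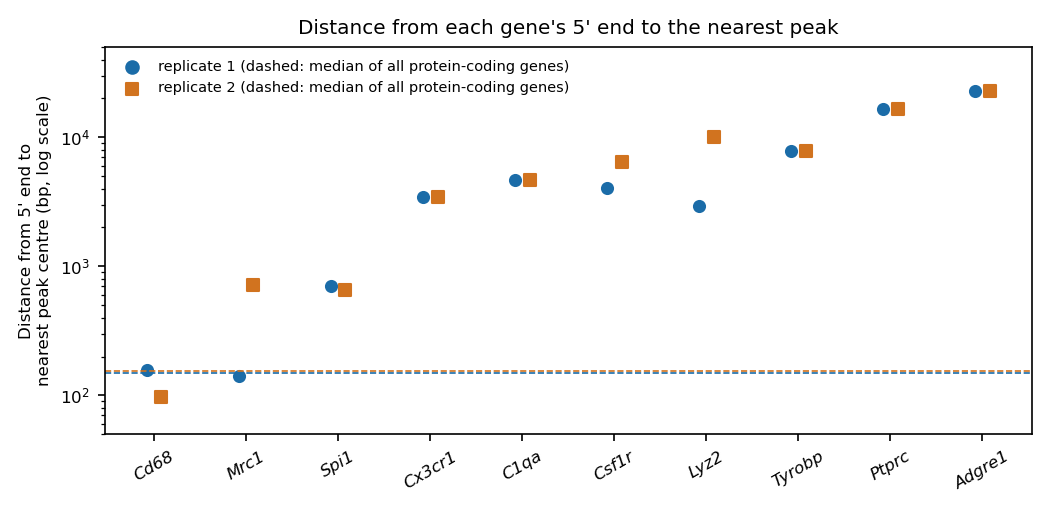
Distance in bp on a log scale (vertical axis) from the 5′ end of each gene to the centre of the nearest peak, circles for replicate 1 and squares for replicate 2; dashed lines mark the medians of all protein-coding genes, 149 and 155 bp. Cd68 lies near the dashed lines in both libraries and Mrc1 in replicate 1 only, and Adgre1 lies farthest above them.

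Inside the genes, 5 of 10 had a body peak in both libraries (Ptprc, Spi1, Csf1r, Mrc1 and Cx3cr1), against 53.2% of all protein-coding genes, so the members' share was near the background. Body peaks depend on gene length. C1qa, Lyz2 and Tyrobp, of 2.9, 5.0 and 3.8 kb, fall in a length decile where 73.3% of genes have no body peak in either library, and Cd68, of 1.9 kb, in one where 86.1% have none. Adgre1 stood apart from genes of its size: it spans 124.8 kb and had no body peak in either library, as had 28 of the 2194 genes in its length decile (1.28%). Leaving Cx3cr1 aside, whose span is treated further on, promoter and body peaks numbered 19 in replicate 1 and 23 in replicate 2, with median values of 32 and 20, at median percentiles of 41.5 and 18.2 of their libraries. Of these, 68.4% and 60.9% overlapped a peak of the other library, against 70.1% and 79.8% of all peaks. The shared peaks were the stronger ones, with medians of 39 and 31.5 against 23 and 18 for the unshared.

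Spi1 (ENSMUSG00000002111.8, chr2:91082390-91115756, plus strand) encodes PU.1, the ETS-family factor that myeloid and B lineage cells require. It had no peak within 500 bp of any of its 4 start sites, yet it had the strongest body peaks of the members other than Cx3cr1. The peak in intron 2 had values of 78 and 71 (74.5 ± 4.95, SD, n = 2), at percentiles 90.3 and 88.5. A second, over coding exon 5 of 5, had 87 and 85 (86 ± 1.41), and lies toward the neighbouring gene Mybpc3, which encodes a cardiac myosin-binding protein and had peaks at its own start of 95 and 70. The values in intron 2 and exon 5 differed between libraries by less than 10, and both sites were in the upper part of all peaks.

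Upstream of the main Spi1 transcript a peak 13005 bp before its start in replicate 1 and 13045 bp in replicate 2 had values of 30 and 32. It lies 701 and 661 bp inside the annotated gene because a longer transcript begins upstream. Another shared peak, 3.3 kb before the 5′ end of the gene, had 29 and 31. Spi1 is known for a regulatory element upstream of its main start; whether either peak lies in it was not tested. A weak site at chr2:91088436-91088585 had a value of 12 in replicate 1 and, at shifted positions, 8 and 7 in replicate 2. Replicate 1 alone listed 2 more sites in intron 2, with values of 12 and 38.

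Ptprc (ENSMUSG00000026395.16, chr1:138062861-138175708, minus strand) encodes CD45, the phosphatase on the surface of all nucleated blood cells. None of its 12 start sites had a peak, but 4 sites inside the gene were listed in both libraries. The strongest, in intron 17 of the 30-exon transcript and at the same position in both libraries, had values of 49 and 55 (52 ± 4.24, SD, n = 2). In intron 2 the others had 32 and 31, 26 and 21, and 19 and 15. The weakest of these, printed above as the repeat-like intron 2 peak, is almost wholly made of purines. Replicate 2 listed 2 further sites of value 18 each. Past the 3′ end of the gene a stronger site, at chr1:138044656-138044805, had 68 and 64. Its nearest protein-coding start was an internal start of Ptprc 70.7 kb away, while the 5′ end of Ptprc lay 131 kb away.

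Csf1r (ENSMUSG00000024621.16, chr18:61100598-61132149, plus strand) encodes the receptor that keeps tissue macrophages alive. None of its 6 start sites had a peak. A site in intron 14 had values of 58 and 39 (48.5 ± 13.4, SD, n = 2), and one in intron 10, which overlaps an exon of another transcript, had 32 and 19 (25.5 ± 9.19). Both were higher in replicate 1. Replicate 2 alone listed 3 sites in the first intron, at 1119, 1959 and 2879 bp from the start of the reference transcript, with values of 18, 15 and 26. Csf1r has a known enhancer within its first introns; whether these sites lie in it was not tested. In the body of its neighbour Pdgfrb, which encodes a growth factor receptor of pericytes and fibroblasts, a site 32 kb upstream of Csf1r had 52 and 53, and an intergenic site 12.6 kb upstream had 44 and 28.

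Within the body of Mrc1 the libraries shared 2 sites. The site in intron 15 had 60 and 65 (62.5 ± 3.54, SD, n = 2) at the same position, and the site in intron 11 had 58 and 41 (49.5 ± 12). Both were as strong as or stronger than the promoter peak. The other body peaks of Mrc1, 3 in replicate 1 and 4 in replicate 2, were found in a single library and had values between 13 and 28. Beyond its 3′ end a shared site had 47 and 48.

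Cx3cr1 (ENSMUSG00000052336.7, chr9:119901616-120069879, minus strand) encodes the receptor for the chemokine CX3CL1. By annotation it held more peaks than any other member, with 29 in replicate 1 and 24 in replicate 2, but most of these lay outside its best supported transcript. A single transcript of support level 5, the lowest, stretches the gene to 168.3 kb across Gorasp1, Ttc21a, Csrnp1 and Xirp1 and into Wdr48. The transcript of support level 1, the highest, spans 19.6 kb and held 2 of the body peaks of each library. Of the 27 and 22 peaks outside it, 7 and 8 were at start sites of other genes and 10 and 8 in bodies of other genes, while 10 and 6 lay at no other gene. By neighbour, 9 and 7 were counted at Csrnp1, a nuclear protein gene, and 3 and 3 at Xirp1, which encodes the striated muscle protein Xin. The 27 and 22 peaks outside the transcript of support level 1 had median values of 61 and 66, above the library medians of 36 and 35.

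Within the short span of Cx3cr1 itself, a peak over the untranslated part of exon 2 had a value of 35 in replicate 1 and 21 in replicate 2, which listed a second, overlapping peak of 20. A peak in intron 1 had 18, in replicate 1 only. A stronger site, with Cx3cr1 as the nearest protein-coding start, had 65 and 71 (68 ± 4.24, SD, n = 2). It lay 3.5 kb upstream of the 5′ end, which another transcript of support level 5 sets, and farther from the start of the support level 1 transcript. It was higher than every peak inside the short span. A further shared site 29 kb upstream, 6.7 kb from the start of the chemokine receptor gene Ccr8, had 53 and 52.

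**Figure D3:**
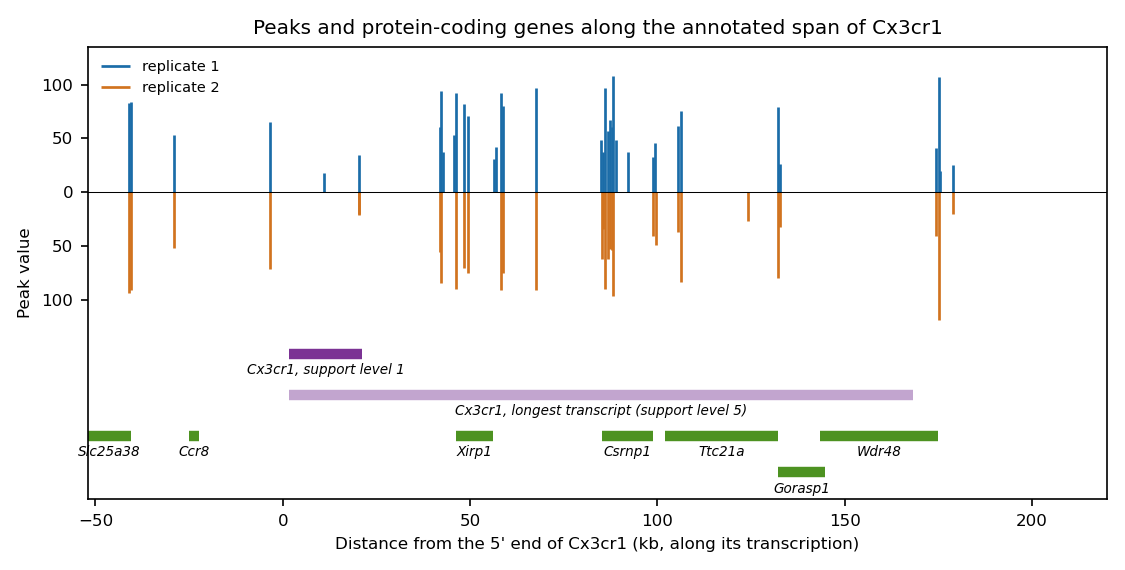
Peak value (vertical axis, replicate 1 upward in blue, replicate 2 downward in orange) against distance in kb from the 5′ end of Cx3cr1 along its transcription, with bars for its support level 1 and longest transcripts (purple) and for neighbouring protein-coding genes (green). The short transcript covers 2 of 29 and 2 of 24 body peaks. Most of the rest sit over or between Xirp1, Csrnp1, Ttc21a and Gorasp1, and the others between Xirp1 and the short transcript.

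Tyrobp (ENSMUSG00000030579.10, chr7:30413760-30417585, plus strand) encodes DAP12, the adaptor through which TREM2 and related receptors signal. It had no peak at any of its 3 start sites or in its body. Around it 12 and 9 peaks were listed, and the strongest, 40.1 kb upstream between genes, had values of 100 and 98 (99 ± 1.41, SD, n = 2). Its nearest protein-coding start was that of Lrfn3, a neuronal adhesion protein gene, 10.9 kb away. A site 19.2 kb upstream, with Tyrobp as the nearest start, had 58 and 37.

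Adgre1 (ENSMUSG00000004730.15, chr17:57358691-57483527, plus strand) encodes an adhesion receptor used as a surface marker of mouse macrophages. All 9 peaks within 50 kb of it, 5 in replicate 1 and 4 in replicate 2, lay in a cluster 22.8 to 29.5 kb upstream in the gap toward Vav1. The strongest of the cluster had 63 and 52 (57.5 ± 7.78, SD, n = 2), and the next had 55 and 46 (50.5 ± 6.36). The weaker sites had 25 and 18, and 16 and 17. Every peak of the cluster overlapped a peak of the other library, while the whole gene and the 50 kb after it held none.

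C1qa (ENSMUSG00000036887.5, chr4:136895917-136898803, minus strand) encodes a chain of C1q, the recognition part of the classical complement pathway, beside C1qc and C1qb. Neither its own start nor the starts of C1qb and C1qc had a peak in either library. A weak shared site in the gap between C1qa and C1qc, 1.1 kb from the start of C1qc, had 27 and 22. Upstream of C1qa a site at 8.5 kb had 48 in both libraries, and one at 25.9 kb had 50 and 36. The open sites of this cluster thus lay between or outside the genes.

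Lyz2 (ENSMUSG00000069516.8, chr10:117277331-117282321, minus strand) encodes lysozyme M, an antibacterial enzyme of macrophages and granulocytes, and had the weakest surroundings. Its promoter falls in the lowest decile by CpG. Of its 6 and 5 nearby peaks none exceeded 34 in replicate 1 or 27 in replicate 2, below the library medians of 36 and 35, and none lay at a start site. Sites shared by the libraries had 28 and 23, 28 and 20, 23 and 27, and 22 and 20. No hotspot around it reached the top −log10 q of 100, unlike the other members' surroundings, each of which held at least 1 such hotspot per library.

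**Figure D4:**
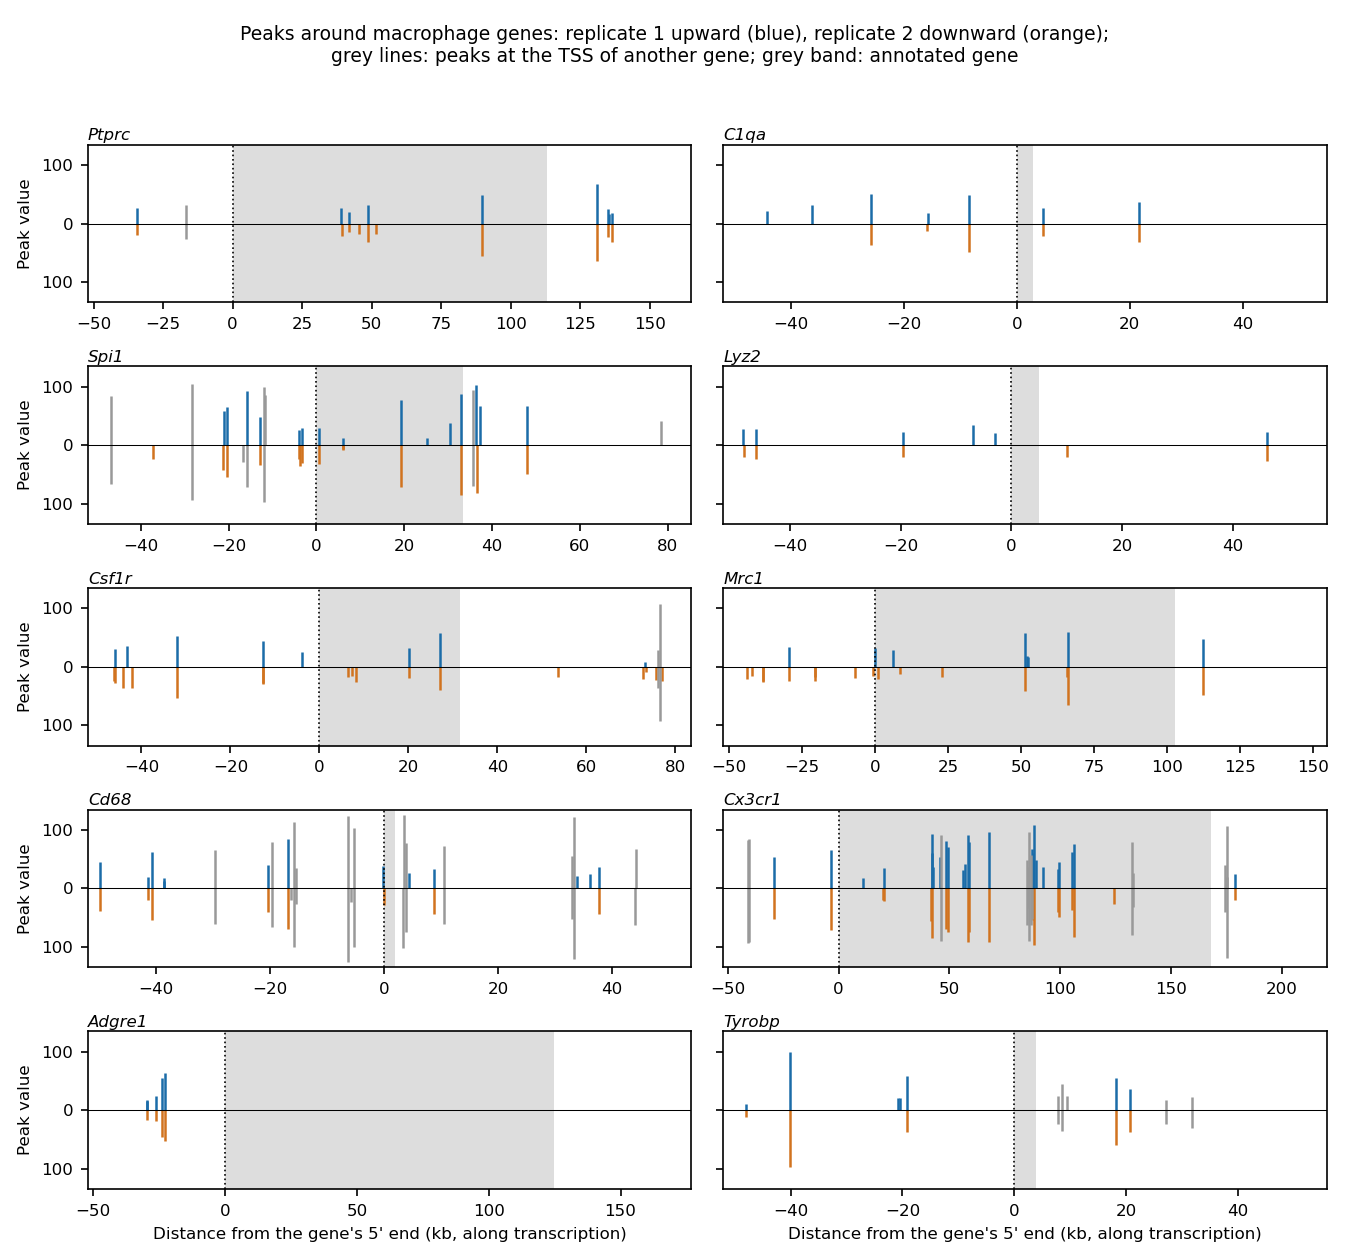
Peak value (vertical axis, replicate 1 upward in blue, replicate 2 downward in orange) against distance in kb from the 5′ end along transcription, for the 10 genes and 50 kb on either side; the grey band is the annotated gene and grey lines are peaks at the start site of another gene. Adgre1 and the 4 genes of up to 5 kb have no line inside the band, and the tallest lines around Cd68 are grey.

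Within 50 kb of the 10 genes, 93 peaks of replicate 1 and 95 of replicate 2 were listed. The median number per member was 7.5 and 8, against 10 and 9 over all protein-coding genes. Taking each gene's mean over the libraries, the medians were 6.75 and 9 within 50 kb and 3.25 and 3.5 within 20 kb. Cd68 had the most, 24 and 21, and Adgre1 the fewest in both libraries together, 5 and 4. Of the nearby peaks, 31 in each library (33.3% and 32.6%) were at start sites of other genes. These had the higher values, with medians of 77 and 66 against 27 and 31 for intergenic peaks. In the whole lists, 132434 of 164657 and 113617 of 144708 peaks lay more than 500 bp from every annotated start site. Whether the higher values at start sites are particular to these surroundings was not tested. Around Cd68 the peaks at other start sites included those of Mpdu1 with 125 and 102, Eif4a1 with 124 and 126, Fxr2 with 122 and 121 and Senp3 with 113 and 100. Around Spi1 they included Psmc3 with 104 and 94 and Slc39a13 with 100 and 98, and near Csf1r the start of Hmgxb3 had 108 and 92. The genes beside these macrophage genes are broadly expressed ones in several cases, such as Eif4a1, a translation initiation factor, and Psmc3, a proteasome subunit. Each of the start sites named here had a higher value than the Cd68 promoter in both libraries.

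The libraries listed similar values at the sites they shared. Over promoters, bodies and surroundings of the 10 genes, 76.6% of 141 peaks in replicate 1 and 78.2% of 142 in replicate 2 overlapped a peak of the other library by at least 1 bp, against 70.1% and 79.8% of all peaks. Of the 107 pairs of overlapping peaks, 72 had the higher value in replicate 1, 31 in replicate 2, and 4 were equal, with a median log2 ratio of replicate 2 to replicate 1 of -0.12 and a largest difference of 25. Replicate 1 also listed more peaks in the genome, 164657 against 144708. No read total accompanies either library in the sources used here, so the part of sequencing depth in these differences was not tested.

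The promoter and body peaks held matches to each of the 6 motifs. PU.1 was matched in 3 of 48 peaks of replicate 1 and 1 of 47 of replicate 2, that is 6.25% and 2.13%, against 8.54% and 7.82% of all peaks. RUNX was matched in 8 and 8 (16.7% and 17%, all peaks 9.27% and 9.46%) and AP-1 in 8 and 7 (16.7% and 14.9%, all peaks 7.25% and 7.17%). Many of these peaks lie in the long annotated span of Cx3cr1: without Cx3cr1, PU.1 was in 2 of 19 and 0 of 23, RUNX in 4 and 6, AP-1 in 3 and 3, C/EBP in 2 and 3, GATA in 0 and 2 and MEF2 in none. With Cx3cr1, C/EBP was in 2 and 3 (4.17% and 6.38%, all peaks 5.95% and 5.84%), GATA in 1 and 2 (2.08% and 4.26%, all peaks 8.47% and 7.98%) and MEF2 in 2 and 2 (4.17% and 4.26%, all peaks 3.87% and 3.92%). Among the 32851 RefSeq promoters of 300 bases, PU.1 was matched in 13.6%, AP-1 in 7.81%, RUNX in 16.8%, C/EBP in 10.8%, GATA in 11.2% and MEF2 in 3.69%. These are letter matches in a window and say nothing about binding.

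Genes that act with the 10 members ranged from all to few with an open promoter. All 10 of the listed myeloid regulators had one in both libraries, with Runx1 at 105 and 91 (at an internal start), Klf4 at 88 and 100 and Ikzf1 lowest at 30 and 30, at different sites in the 2 libraries; the mean share in their CpG deciles was 85.3%, and most of these factors are also used in cells other than macrophages. At Nr1h3 the start is shared with Acp2. Of the 3 ligands, Csf1 with 82 and 72 and Cx3cl1 with 68 and 51 had a promoter peak in both libraries, while Il34 had none. This share of 66.7% was near the mean of 67.7% in the ligands' CpG deciles. The genes of the ligands' receptors, Csf1r and Cx3cr1, had no promoter peak. Both fall in a CpG decile where 30.4% of genes have one in both libraries. Of 12 genes of DAP12 and Fc receptor signalling, 5 had one, among them the kinases Syk (71 and 59) and Lyn (65 and 65). The phospholipase Plcg2 (42 and 38) and the exchange factor Vav1 (20 and 23, at different sites in the 2 libraries) also had one. Of 12 phagocytosis and lysosome genes, 4 had one, namely Lgmn (117 and 113), Grn (117 and 114), Mertk (104 and 97) and Axl (57 and 48). Of C1qb, C1qc and the receptors of C3a and C5a, only C3ar1 had one, with 46 and 29. The mean share in the same CpG deciles was 55.6% for the signalling list (observed 41.7%), 42% for the phagocytosis and lysosome list (observed 33.3%) and 28.1% for the complement list (observed 25%), so the last 2 were near it.

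Of 7 further genes used as markers of resident macrophages in the heart, 4 had a peak at the promoter in both libraries, with Lyve1, a hyaluronan receptor, at 43 and 33, Stab1, a scavenger receptor, at 48 and 47, Cbr2, a carbonyl reductase, at 39 and 34 and F13a1, a coagulation factor subunit, at 23 and 24. All 7 promoters fall in the lowest 3 CpG deciles, where the mean share over their deciles is 25.1%. With the stronger 50% of peaks only, the count of 4 falls to 1. Lyve1 and Stab1 are also known in endothelial cells of lymphatic and other vessels. All 7 endothelial markers had an open promoter in both libraries, with Cdh5 at 62 ± 5.66 and Pecam1 at 47 ± 5.66 (SD, n = 2). In the CpG deciles of these 7 the mean share was 50.4%. The part of endothelial cells in the Lyve1 and Stab1 peaks was not tested.

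Lists of other blood lineages were read in the same way. None of the 4 monocyte genes had one in both libraries, nor had any of the 7 lymphoid genes, among which Cd4 had the most body peaks, 2 and 1. Of 6 neutrophil and mast cell genes, Kit (65 and 53) and Mpo (32 and 30, at an internal start) had one, and of 7 erythroid genes, Tal1 (41 and 54) and Slc4a1 (17 and 21, at an internal start). The mean share of genes in the same CpG deciles was 21.7% for the monocyte, 30.1% for the lymphoid, 34.4% for the neutrophil and mast cell and 32.1% for the erythroid list, so the last 2 lists, at 33.3% and 28.6%, were near it. Markers of the labelled tissue had promoter peaks. All 8 cardiomyocyte genes did in both libraries, with Myh6 at 105 ± 7.07 and Tnnt2 at 108.5 ± 9.19 (SD, n = 2). So did 6 of 7 fibroblast genes, with Pdgfra at 71 ± 5.66 (SD, n = 2) and Col1a1 at 48 and 50, at start sites that differ between the libraries. In the same CpG deciles the mean share was 45.8% for the cardiomyocyte and 39% for the fibroblast list. The peaks of Pdgfra and Pecam1 were at internal starts. The Cd68 promoter, at 34 ± 7.07, had a lower mean than those of Myh6, Tnnt2 and Cdh5, whose peaks lay at the 5′ end as that of Cd68 did. Other markers with a peak at the 5′ end were closer to it in value, such as Postn of the fibroblast list at 38.5 ± 3.54 and Tek of the endothelial list at 40.5 ± 7.78.

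**Figure D5:**
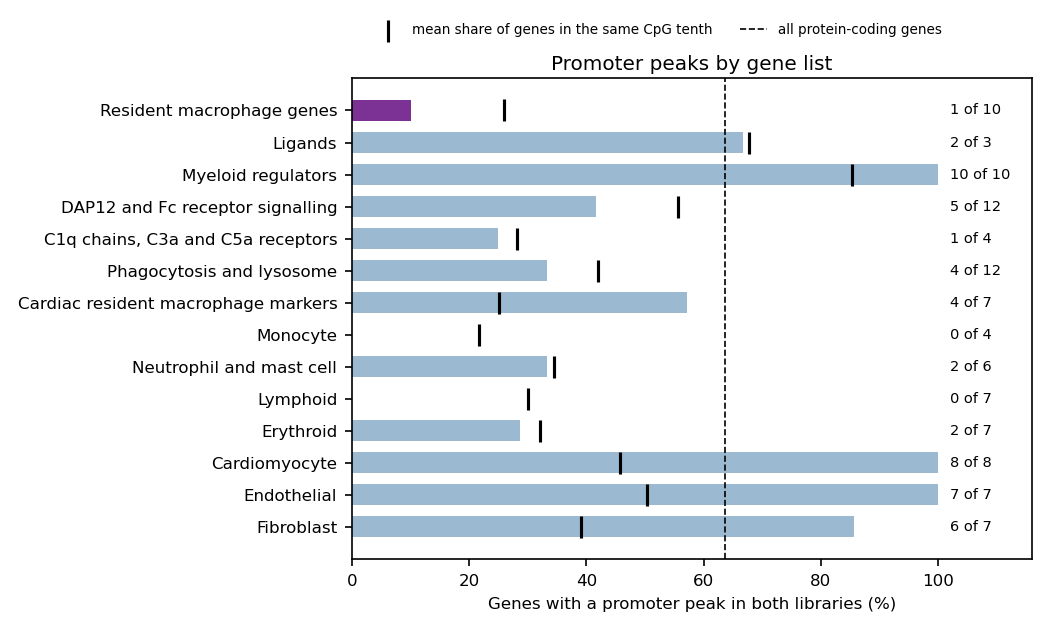
Share of each list's genes whose promoter held a peak in both libraries (horizontal axis, %), with the count at the right; the dashed line is the share of all protein-coding genes, 63.7%, and the black ticks are the mean share of genes in the same CpG deciles. The resident macrophage genes, at 1 of 10, lie below their tick of 26%, while the cardiac resident macrophage markers, at 4 of 7, lie above theirs of 25.1%, a count that falls to 1 with the stronger 50% of peaks.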

How the data were processed

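Peak and hotspot lists of 2 DNase-seq libraries of newborn mouse heart were used. According to the note deposited beside each library, both kinds of list derive from that replicate's own filtered reads aligned to mm10. The aligner, caller, filters and cut-offs were not given in the sources used here, and sites close to the cut-off can be listed in 1 library and missed in the other. The deposited peak lists hold 1 signal value per 150 bp peak, a whole number of at most 150 with no normalization stated. The deposited hotspot lists hold the −log10 of a q-value, which is set to 100 for 34.3% and 31.7% of hotspots. Read totals are not given, so depth is unknown and precision rests on the spread between 2 libraries.

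Genes and start sites came from GENCODE vM21. Peak centres were assigned to promoters (500 bp), bodies and surroundings (50 kb) with Python 3.11.15, numpy 2.4.6, pandas 2.3.3 and pysam 0.24.0, and figures were drawn with matplotlib 3.10.9. A promoter's CpG ratio is observed over expected CpG, and genes were divided into deciles by it and by gene length. Only the counting of peaks by zone, the overlap of hotspots with promoters and the overlap between peak lists were tested on simulated data. With 1 group there is no contrast and no test was made. The 10 members and the 13 other lists were chosen with earlier results of these data known. The text names all members, the genes of other lists with a promoter peak in both libraries (or, where none has one, the gene with most body peaks), neighbours with a peak at their start, and 6 heart wall markers, except that some list genes are counted but not reported here by name; Ccr8, Pdgfrb, Lrfn3, Xirp1, Csrnp1, Ttc21a, Gorasp1, Wdr48, C1qb, C1qc and Il34 were named after their values were seen.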

Additional observations from a re-analysis of the deposited data

How the results depend on the processing

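The count of members with a body peak in both libraries was 5 under every alternative run, among them transcripts of support level 1 only. Among the stronger 50% of peaks, Cx3cr1 was counted only through peaks outside its support level 1 transcript, and these restrictions were not combined. The count of list genes with a promoter peak, 51, ranged from 42 to 55. With the stronger 50% of peaks, the cardiac resident macrophage list went from 4 to 1, the signalling list from 5 to 3, the complement list from 1 to 0, and the erythroid and the neutrophil and mast cell lists from 2 to 1. The monocyte list went from 0 to 1 with 1000 bp and without replicate 2. Members with a promoter peak numbered 3 with a 1000 bp window (Spi1, Cd68 and Mrc1, all genes 66.0%), 0 with the stronger 50% of peaks (57.9%) and 1 to 2 when 1 library was left out. Members with a promoter hotspot numbered 3 with 1000 bp (66.5%), 0 with hotspots of the top value only (52.4%) and 1 to 2 when 1 library was left out. Spi1 entered both counts of 3 at the starts of its upstream transcripts, not at the start of its main transcript. The mean number of nearby peaks per library, 94, was 48.5 with the stronger 50% of peaks, 44 within 20 kb (median per member 3.25, all genes 3.5) and 201 within 100 kb, changes that follow from counting fewer peaks or a wider region. The mean shared percentage, 77.4% ± 1.11 (SD, n = 2), was 73.9% at an overlap of 75 bp (all peaks 69.9%) and 85.8% with the stronger 50% (82.6%), and it has no value with 1 library. The mean of the median value percentile of promoter and body peaks, 63.9 ± 8.70, was 29.9 without Cx3cr1. PU.1 matches averaged 2 per library, 1 without Cx3cr1 and 1 to 3 when 1 library was left out. Leaving out Cx3cr1, the restriction to support level 1, and leaving out a library for values, lists and motifs were chosen after seeing the data. No paired analysis was possible because the libraries form 1 group with no contrast.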

Other observations

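At low values the peak and hotspot lists rank sites differently. The weak Spi1 site with a peak value of 12 in replicate 1 lay in a hotspot with the top −log10 q of 100. Over all peaks with a value of at most 12, 27.2% of 8064 in replicate 1 and 24.1% of 9307 in replicate 2 lay in such hotspots, against 37.6% and 35.7% of all peaks.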
